A study of Mus musculus with 6 samples.

Results

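The prolactin receptor and its JAK2-STAT5 pathway were described here in beta-cells through 7 genes: the receptors *Prlr* and *Ghr*, the kinase *Jak2*, the transcription factors *Stat5a* and *Stat5b*, and the STAT5 target genes *Cish* and *Socs2*. The genes were chosen by symbol, and all 7 were among the 13535 genes of the deposited table. *Prlr* had been picked out by the study from these same samples, and the other 6 were joined to it with the results in view, so the differences of these 7 genes between groups are given as a description. Standard errors, intervals and counts of calls show their spread only, and none of them is used as a test. The question asked of them was whether *Cish* and *Socs2* followed *Prlr*.

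RNA came from beta-cells of wild-type (WT) C57BL/6JRj male mice, 12 weeks of age. These beta-cells were sorted by FACS out of clusters that had been reaggregated from sorted islet cells and cultured for 5 days. In pseudo-islets the beta-cells had been clustered with alpha- and delta-cells, and in pseudo-beta they had been clustered alone. Each group held 3 libraries, 1 from each of the experiments numbered 35, 36 and 37 in the labels, made from 5 ng of total RNA and read as pairs of 75 bases. The labels name no hormone added to the medium of these cultures, which held fetal bovine serum, and do not say how many mice went into an experiment.

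Prolactin and growth hormone receptors have no kinase of their own. Binding of the hormone activates the receptor-bound kinase JAK2, which phosphorylates STAT5A and STAT5B, and these enter the nucleus and switch on target genes, among them *Cish* and *Socs2*, whose products dampen the signal in a feedback loop. In beta-cells this pathway is best known for the growth of beta-cell mass and the rise in insulin secretion during pregnancy. Activation of JAK2 and STAT5 is a matter of phosphorylation, which RNA levels do not measure.

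Values are normalized counts, that is, read counts that the authors had scaled between libraries. They summed to between 17994346 and 19635287 per library, and the 10 most abundant genes held 40.89% to 44.97% of that sum. Across genes, the log2 values of any pair of libraries correlated at 0.9408 to 0.9616. Sorted beta-cells of both groups carried all 10 beta-cell markers looked for. Over all genes, limma on log2(value + 1) called 8 at an adjusted p under 0.05, all higher in pseudo-islets, or 73 when the experiment number was a block. Without the block these p-values rest on the spread between 3 cultures per group, and with it on the spread of the within-experiment differences. An exact two-sided permutation test of a single gene, with libraries unpaired, cannot go below 0.1 with 3 libraries against 3.

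Promoter windows of *Cish* and *Prlr* are shown because the DNA motif bound by STAT5, TTCNNNGAA, was found in them and in no window of the other genes. The windows are RefSeq promoters of build GRCm38.p6, each running from 250 bases before to 50 bases after an annotated start, and 6 of the 7 genes had at least 1. *Socs2* had no entry. The first line is the *Cish* window, chr9:107296409-107296708 on the plus strand, and the second is 1 of the 3 *Prlr* windows, chr15:10223656-10223955 on the plus strand. Capitals mark each match to the motif, which reads the same on both strands.
*Cish* promoter: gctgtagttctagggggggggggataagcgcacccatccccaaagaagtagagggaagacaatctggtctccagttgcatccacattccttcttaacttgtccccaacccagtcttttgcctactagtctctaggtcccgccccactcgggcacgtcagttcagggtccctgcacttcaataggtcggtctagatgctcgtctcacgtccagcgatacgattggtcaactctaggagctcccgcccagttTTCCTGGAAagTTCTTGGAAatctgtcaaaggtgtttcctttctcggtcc
*Prlr* promoter: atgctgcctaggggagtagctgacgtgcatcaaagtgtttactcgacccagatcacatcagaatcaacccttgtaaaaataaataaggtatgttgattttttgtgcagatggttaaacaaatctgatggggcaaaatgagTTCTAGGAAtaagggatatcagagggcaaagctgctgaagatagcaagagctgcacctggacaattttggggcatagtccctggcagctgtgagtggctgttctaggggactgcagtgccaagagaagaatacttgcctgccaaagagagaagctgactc
The *Cish* window held a pair of matches, TTCCTGGAA from +1 to +9 and TTCTTGGAA from +12 to +20, with +1 the annotated start. The single *Prlr* match, TTCTAGGAA, ran from -110 to -102. No match stood in the other 2 *Prlr* windows, the 2 of *Ghr*, the 2 of *Stat5a*, the 2 of *Stat5b* or the 1 of *Jak2*. Of 32851 RefSeq promoters of this length, 2726 (8.3%) held at least 1 match, and 150 (0.457%) held 2 or more. A match describes the letters only and is no measure of STAT5 binding.

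*Prlr*, the prolactin receptor (ENSMUSG00000005268, GRCm38 chromosome 15, 10177238 to 10349180, plus strand), ranked 32 of all genes by its mean normalized count, with no correction for length. Pseudo-islets held 33036, 27345 and 24642 normalized counts in experiments 35, 36 and 37. Pseudo-beta held 21282, 21358 and 16540. All 3 pseudo-islet libraries lay above all 3 pseudo-beta libraries, and within each experiment the pseudo-islets were the higher of the pair. The means were 28341 ± 4285 and 19727 ± 2760.0 (SD, n = 3), a log2 difference of 0.52 (SE 0.15, 95% interval 0.19 to 0.85), or 1.44-fold. The differences within experiments were 0.63, 0.36 and 0.58 on the log2 scale, and with the experiment as a block the interval narrowed to 0.37 to 0.67. In a bulk sample, a change in the share of cells of a type and a change in RNA per cell cannot be told apart.

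The gene-level value of *Prlr* sums over its isoforms. GENCODE M21 lists 12 transcripts, of which 7 code for protein, with 7 different coding lengths, so long and short forms of the receptor, which differ in the intracellular tail and in the ability to signal, were not separated. Of the 75-base windows in its exons, 0.83% also occurred in another gene. The study lists quantitative PCR primers for *Prlr*, though its figure legends name no quantitative PCR of this gene. The primers are shown because they read a narrower part of the gene than the sequencing did.
Forward: tctcatcttggctactgggaga
Reverse: gcatgatcaggggaccttct
They matched chr15:10177303-10177324 and chr15:10177402-10177421, in the first exon of the retained-intron transcript Prlr-201. None of the coding transcripts of M21 had an exon there (0 of 7).

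*Ghr*, the growth hormone receptor (ENSMUSG00000055737, chromosome 15, 3317760 to 3583492, minus strand), uses the same kinase and transcription factors. Pseudo-islets held 4354, 5022 and 4786 normalized counts and pseudo-beta 4522, 4744 and 3932. The groups overlapped, and pseudo-islets were higher in 2 of 3 experiments. The means were 4721 ± 339 and 4399.5 ± 419.8, a log2 difference of 0.10 (SE 0.13, 95% interval -0.18 to 0.38). *Prlr* stood at 7.59, 5.44 and 5.15 times *Ghr* in pseudo-islets and at 4.71, 4.50 and 4.21 times in pseudo-beta, as a ratio of normalized counts with no correction for length. The ratio did not overlap between groups, but its numerator is the gene that was picked for its difference, so this restates the *Prlr* values.

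**Figure D1:**
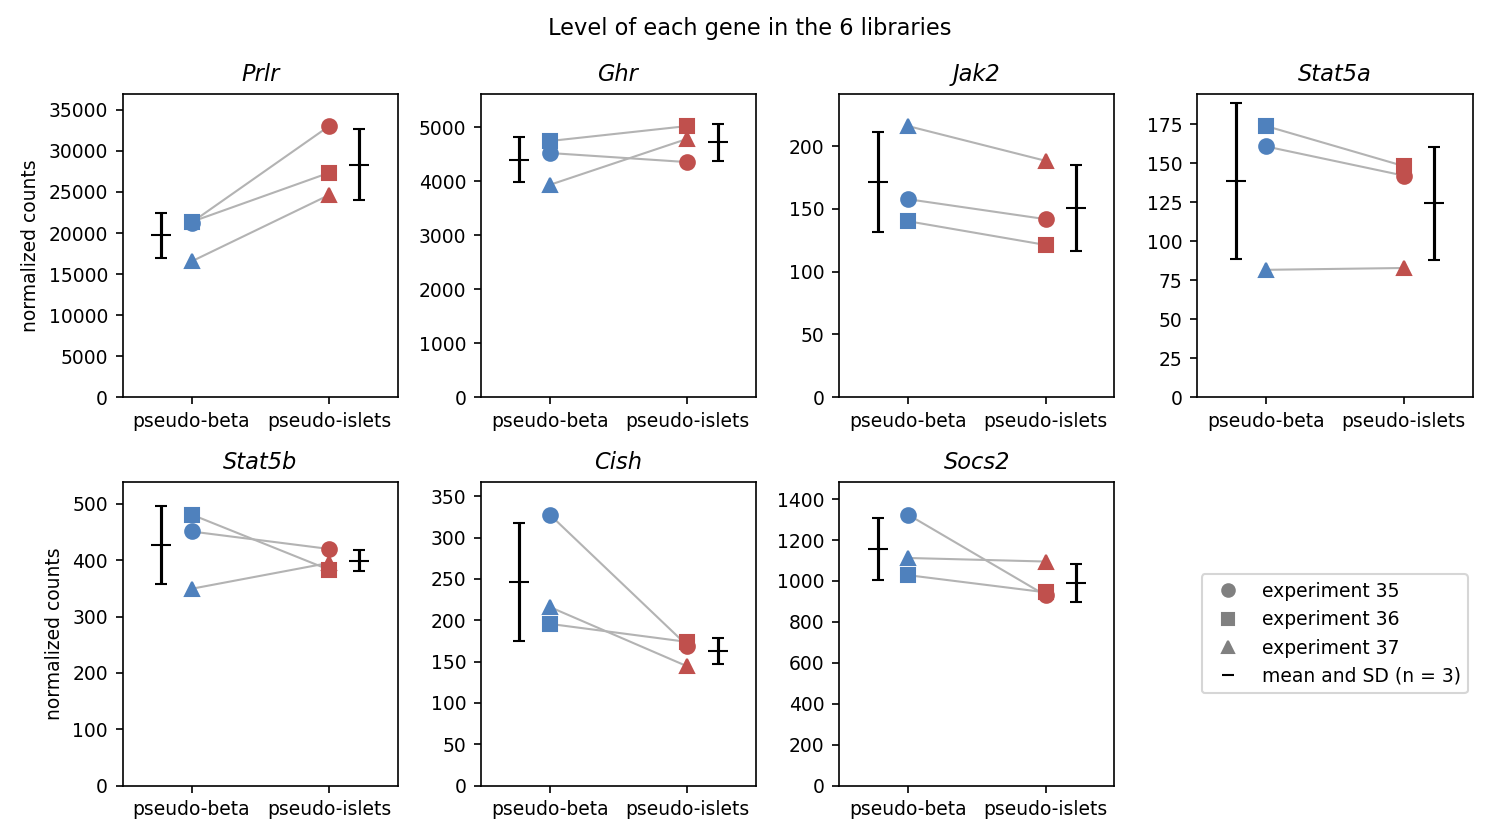
Normalized counts (y axis, from 0) of each gene in the 6 libraries, with pseudo-beta in blue and pseudo-islets in red, a symbol for each experiment, a grey line joining the libraries of 1 experiment, and the mean and SD (n = 3) in black. *Prlr* is at 24642 or more in every pseudo-islet library and at 21358 or less in every pseudo-beta library, *Cish* is at 174 or less and at 196 or more, and the other 5 genes overlap.

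*Jak2*, the kinase that both receptors bind (ENSMUSG00000024789, chromosome 19, 29251828 to 29313080, plus strand), was measured at lower counts. Its values were 142, 121 and 188 in pseudo-islets against 158, 140.1 and 216 in pseudo-beta. Pseudo-islets were the lower of the pair in 3 of 3 experiments, by 0.15, 0.21 and 0.20 on the log2 scale, yet the groups overlapped, with experiment 37 high in both. The log2 difference was -0.19 (SE 0.28, 95% interval -0.80 to 0.43), and the block gave -0.67 to 0.29.

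*Stat5a* and *Stat5b* encode the 2 STAT5 proteins and lie side by side on chromosome 11, with 8626 bases between them. *Stat5a* (ENSMUSG00000004043, 100859351 to 100885169, plus strand) held 142, 148 and 82.9 normalized counts in the pseudo-islet libraries against 161, 174 and 81.7 in pseudo-beta. *Stat5b* (ENSMUSG00000020919, 100780731 to 100850724, minus strand) held 419.9, 383 and 395 in pseudo-islets against 451, 481 and 349 in pseudo-beta. Neither separated the groups. The log2 differences were -0.13 (SE 0.36, 95% interval -0.93 to 0.68) for *Stat5a* and -0.08 (SE 0.19, 95% interval -0.51 to 0.34) for *Stat5b*. The ratio of *Stat5b* to *Stat5a* in normalized counts, with no correction for length, ran from 2.58 to 4.77, and it was 4.77 and 4.28 in experiment 37 against at most 2.95 in the others, whatever the group. Identical 75-base windows made up 5.12% of *Stat5a* and 6.99% of *Stat5b*, and *Stat5a* overlaps *Stat3* on the opposite strand, so some reads of these genes are uncertain in origin. Whether counting used the strand is not given in the sources used here.

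*Cish*, a SOCS-family inhibitor that STAT5 induces (ENSMUSG00000032578, chromosome 9, 107296026 to 107302784, plus strand), went the other way from *Prlr*. Pseudo-islets held 169, 174 and 144 normalized counts and pseudo-beta 328, 196 and 216. No pseudo-islet library reached the lowest pseudo-beta library, and the pseudo-beta library of experiment 35 stood far above the rest. The means were 162 ± 15.9 and 247 ± 71.2, a log2 difference of -0.57 (SE 0.26, 95% interval -1.14 to 0.01). Within experiments the differences were -0.95, -0.17 and -0.58, and the block gave an interval of -1.05 to -0.08. Without the pseudo-beta library of experiment 35 the log2 difference was -0.34. The locus overlaps the pseudogene *Gm17040* and the antisense gene *Gm17041*, and 7.93% of its 75-base windows also occurred elsewhere in the annotation.

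*Socs2*, which restrains growth hormone signalling and is likewise a STAT5 target (ENSMUSG00000020027, chromosome 10, 95385362 to 95417180, minus strand), was not higher in pseudo-islets in any experiment. Pseudo-islets held 930.2, 945 and 1095 normalized counts and pseudo-beta 1325, 1029 and 1113. Pseudo-islets were lower in 3 of 3 experiments, by 0.51, 0.12 and 0.02 on the log2 scale, but the groups overlapped. The means were 990.0 ± 91.3 and 1155 ± 153, a log2 difference of -0.22 (SE 0.16, 95% interval -0.57 to 0.13), which was -0.12 without the pseudo-beta library of experiment 35. Of its 75-base windows, 3.16% also occurred in other genes.

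By their own counts, then, neither target followed the receptor, and the groups of *Socs2* overlapped. *Cish* stood at 5.12, 6.36 and 5.85 normalized counts per 1000 of *Prlr* in pseudo-islets and at 15.4, 9.16 and 13.1 in pseudo-beta. *Socs2* stood at 28.2, 34.5 and 44.4 per 1000 of *Prlr* in pseudo-islets and at 62.2, 48.2 and 67.3 in pseudo-beta. Neither ratio overlapped between groups, and both were lower in pseudo-islets in every experiment. The log2 differences of the *Cish* ratio were -1.59, -0.53 and -1.16, where *Cish* itself differed by -0.95, -0.17 and -0.58. Those of the *Socs2* ratio were -1.14, -0.48 and -0.60, where *Socs2* itself differed by -0.51, -0.12 and -0.02. The rest of each is the *Prlr* difference, for which *Prlr* was picked, so lower ratios in pseudo-islets were largely fixed in advance. Nothing is read from their separation.

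**Figure D2:**
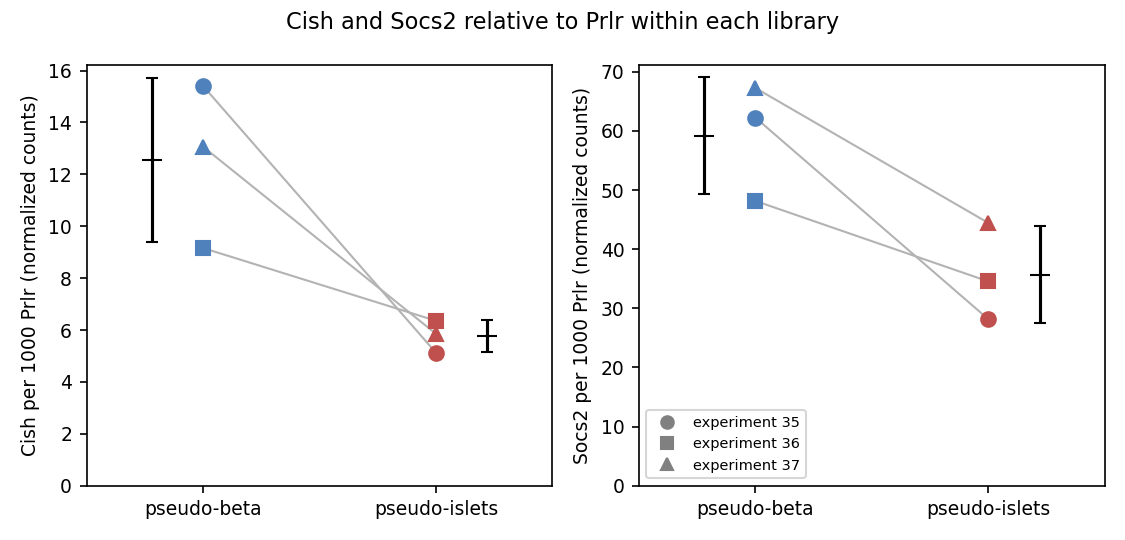
Normalized counts of *Cish* and of *Socs2* per 1000 normalized counts of *Prlr* (y axes, from 0) in the 6 libraries, with a symbol for each experiment and a line joining the libraries of 1 experiment. *Cish* lies between 5.12 and 6.36 in pseudo-islets and between 9.16 and 15.4 in pseudo-beta, and *Socs2* between 28.2 and 44.4 and between 48.2 and 67.3.

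Of the 7 genes, 2 did not overlap between the groups, where 10.8% of all genes did not. They were *Prlr*, wholly higher in pseudo-islets as 5.63% of all genes were, and *Cish*, wholly lower as 5.13% were. *Prlr* was higher in all 3 experiments, as were 18% of all genes. Lower in all 3 were *Cish*, *Socs2* and *Jak2*, as were 15% of all genes. At an adjusted p under 0.05, 0 of the 7 were called without the block, beside 0.0591% of all genes, and 1, *Prlr*, with it, beside 0.539%. *Prlr* was picked for this difference in these libraries, so its call is no evidence for it. The median log2 difference of the 7 was -0.13, beside 0.01 over all genes. Since the genes were chosen with these differences known, nothing is read from these counts.

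**Figure D3:**
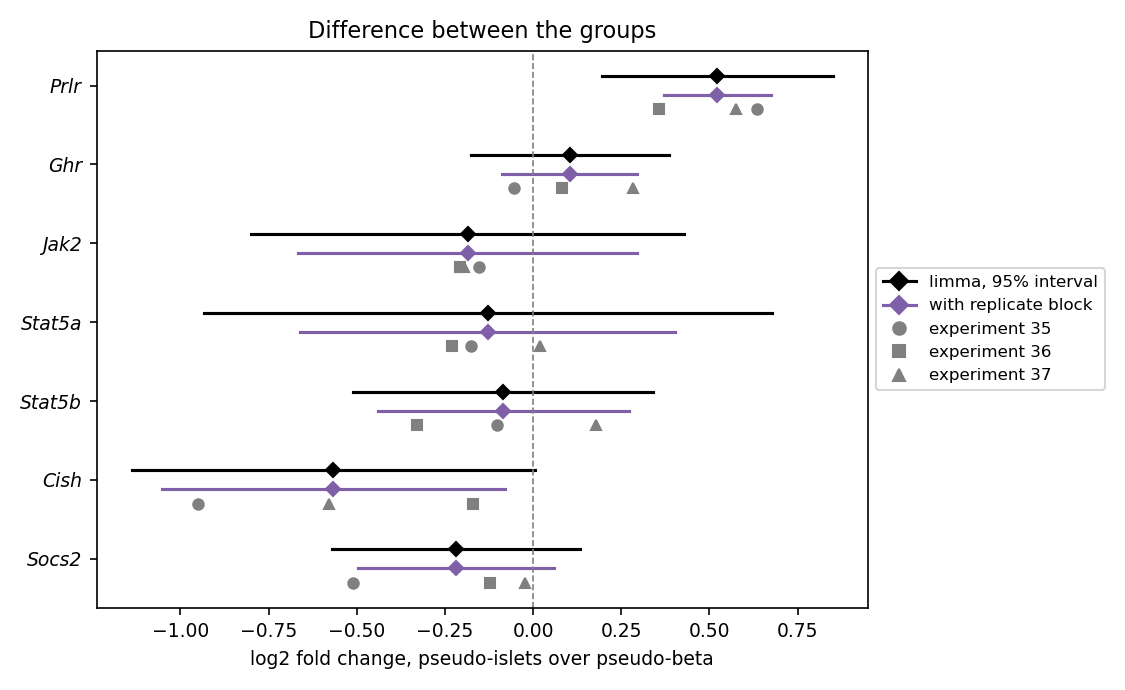
Log2 difference of each gene, pseudo-islets over pseudo-beta (x axis), with the mean and 95% interval without and with the experiment block and the 3 within-experiment differences as symbols. *Prlr* lies at 0.52 with intervals above 0, *Cish* at -0.57 with an interval that reaches 0.01 without the block, and the intervals of the other 5 genes all cross 0.

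To set levels of different genes side by side, normalized counts were divided by the kilobases of the longest coding transcript. *Prlr* had the highest level, 2863 in pseudo-islets and 1993 in pseudo-beta, followed by *Ghr* at 1131 and 1054 and *Socs2* at 446 and 519.9. Over the 6 libraries these 3 genes did not overlap, with ranges of 1671 to 3337, 942 to 1203 and 419 to 596. *Stat5b*, at 76.6 and 81.9, and *Cish*, at 57.0 and 86.5, overlapped in their ranges of 67.0 to 92.3 and 50.6 to 115. *Stat5a*, at 32.0 and 35.7, and *Jak2*, at 29.9 and 34.0, formed the low end and overlapped as well. The order depends on the length used. Per kilobase of all merged exons *Prlr* ran from 1078 to 2154, *Ghr* from 434 to 555 and *Socs2* from 97.6 to 139. On that scale *Stat5b*, at 63.0 to 86.8, lay wholly above *Cish*, at 22.5 to 51.1. The receptor exceeded its kinase and both STAT5 genes in every library on both scales.

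The other genes of the pathway came from lists by role, of which 88 of 131 genes were in the table. None passed an adjusted p under 0.05 in limma, without or with the block, where 0.0591% and 0.539% of all genes did. Without the block 8 had an unadjusted p under 0.05, where 5.4% of all genes did. Their median log2 difference was 0.02, beside 0.01 over all genes. The 8 were *Il3ra*, *Vav2*, *Ehhadh*, *Pim2* and *Cdkn1a*, at higher levels in pseudo-islets, and *Cntfr*, *Stat2* and *Socs1*, at lower levels. *Il3ra*, *Vav2* and *Cdkn1a* are named after their values were seen. With the block 14 had an unadjusted p under 0.05, against 11.9% of all genes.

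Of the 10 listed ligands, the prolactin, placental lactogen and growth hormone genes, 0 were in the table, and they are not analysed here. Of the 35 other cytokine receptors, 17 were, with a median log2 difference of -0.05. *Cntfr*, the receptor for ciliary neurotrophic factor, was at -0.61 (SE 0.24), with 119.5, 134 and 151 normalized counts in the pseudo-islet libraries against 194, 235 and 189 in pseudo-beta. *Il15ra* was at -0.36, *Il13ra1*, a subunit of the interleukin-13 receptor, at 0.38 and *Il10rb* at 0.31.

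Among the other Janus kinases and STAT factors, 7 of 8 were in the table, with a median of -0.07. *Jak1*, the kinase of the interferon and gp130 receptors, was at 0.04 and *Tyk2* at -0.07, while *Jak3* was at -0.81 but at low counts of 8.20 to 39.3. *Stat2*, a factor of interferon signalling, stood lowest of the list at -0.93 (SE 0.28). It held 105, 114 and 125 normalized counts in the pseudo-islet libraries against 171, 309.7 and 196 in pseudo-beta, and its groups did not overlap. *Stat3*, the factor of interleukin-6 signalling, was at 0.16 and *Stat6* at -0.26. *Stat3* was wholly higher in pseudo-islets, as 5.63% of all genes were, with 4559, 4827 and 4371 normalized counts against 4103, 4255 and 3912.

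Inhibitors of the pathway, 18 of 19 in the table, had a median of 0.02. *Socs1*, another feedback inhibitor of Janus kinases, was low in both groups, with 15.5, 12.6 and 7.17 normalized counts in the pseudo-islet libraries against 27.9, 37.7 and 26.3 in pseudo-beta, at -1.36 (SE 0.52). *Socs3*, induced mainly by STAT3, was at 0.89 (SE 0.71) with 39.9, 32.6 and 197 in pseudo-islets beside 16.4, 33.3 and 71.3 in pseudo-beta. Within experiments its log2 differences were 1.23, -0.03 and 1.46. *Socs4*, *Socs5*, *Socs6* and *Socs7* lay at 0.18, 0.02, -0.33 and -0.20, *Cblb*, a ubiquitin ligase, at 0.32 and *Pias3* at -0.34. Of these 6 SOCS genes, *Socs1* and *Socs6* were lower in pseudo-islets in all 3 experiments, beside 15% of all genes, *Socs7* was lower in 2, and *Socs3*, *Socs4* and *Socs5* were each lower in 1.

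Of the 19 genes of receptor turnover and adaptors, 17 were in the table, with a median of 0.02. *Skp1a*, a subunit of the ubiquitin ligase that degrades the receptor, was at 0.22 and *Cul1*, of the same complex, at -0.19. *Ppia* was at 0.12 and *Sh2b1*, an adaptor that binds JAK2, at -0.33. *Vav2* was at 1.55 (SE 0.44) at low levels, with a mean of 53.1 ± 9.24 in pseudo-islets and 20.4, 22.04 and 11.5 in the pseudo-beta libraries.

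Genes reported to respond to lactogens in beta-cells, 21 of 28 in the table, had a median of 0.03. Without or with the block 0 were called, beside 0.0591% and 0.539% of all genes. *Tph1*, the enzyme of serotonin synthesis that lactogens strongly induce in pregnancy, was listed at 0 in 3 libraries and reached 13.4 at most, and *Tph2* lay between 3.62 and 46.9. Both are named after their values were seen. *Ehhadh*, a peroxisomal enzyme of fatty acid oxidation, was at 0.69 (SE 0.25) with 360.3, 352 and 249 normalized counts in the pseudo-islet libraries against 240.1, 207 and 151 in pseudo-beta. It was wholly higher in pseudo-islets, as 5.63% of all genes were. *Ccnd1*, the G1 cyclin, was at 0.35 (SE 0.21), higher in pseudo-islets in all 3 experiments, but its groups overlapped. *Irs2*, an adaptor of the insulin receptor, was at -0.36 and *Matn2* at -0.21.

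General STAT5 targets, 12 of 18 in the table, had a median of 0.10. *Pim2*, a survival kinase, was at 0.64 (SE 0.18), with 785, 892 and 721 normalized counts in the pseudo-islet libraries against 497, 597 and 448 in pseudo-beta. Its groups did not overlap, and its adjusted p was 0.649, or 0.0591 with the block, both from limma. *Myc* was at -0.37 and *Ccnd2*, an abundant cyclin of beta-cells, at -0.13, and *Cdkn1a*, an inhibitor of the cell cycle, at 0.34 (SE 0.15). Of the 12 listed STAT5 targets, 7 lay above 0, among them *Socs3* and *Ccnd1*, and 5 below, among them the low-count *Socs1*.

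**Figure D4:**
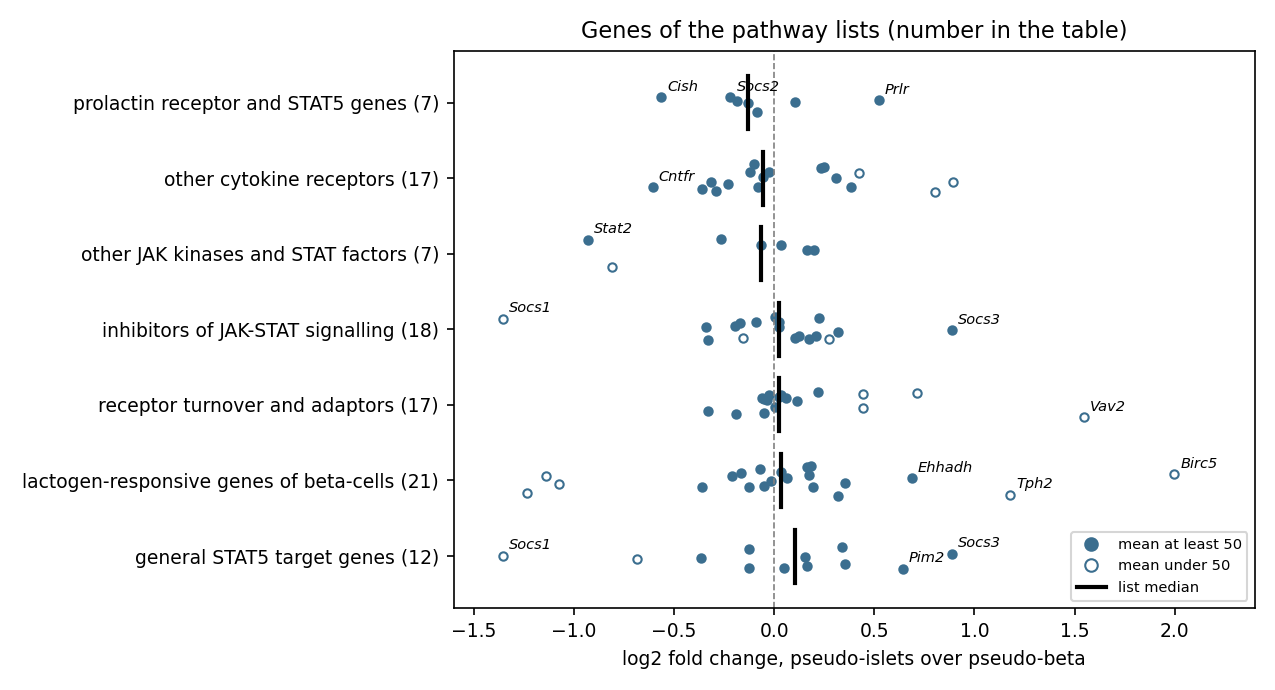
Log2 difference, pseudo-islets over pseudo-beta (x axis), of every gene in the table from the pathway lists (rows, with the number of genes), with genes of a mean under 50 normalized counts as open circles and the list median as a bar. List medians run from -0.13 for the 7 genes to 0.10 for the general STAT5 targets, and within the 7 genes *Prlr* at 0.52 and *Cish* at -0.57 form the ends.

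Among the genes whose level over the 6 libraries was most like that of *Prlr* were *Tmem41b*, *Pcsk1*, *Frk* and *Cpeb1*, with a Pearson r of 0.9989, 0.9972, 0.9935 and 0.9875. This is a description over 6 points that share group, experiment and scaling, and 47 of the 10576 genes compared (0.444%) had an r over 0.95. The log2 differences of the 4 named were 0.33, 0.43, 0.27 and 0.50. All 4 had their highest value in the pseudo-islet library of experiment 35 and their lowest in the pseudo-beta library of experiment 37, as *Prlr* did. Since they were chosen by r with *Prlr*, this and the sign of their differences follow largely from the choice. *Pcsk1*, the convertase that cleaves proinsulin, held 15813, 13399.8 and 12644 normalized counts in the pseudo-islet libraries against 11265, 10927 and 8881 in pseudo-beta. The study had also picked *Pcsk1* out from these samples.

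**Figure D5:**
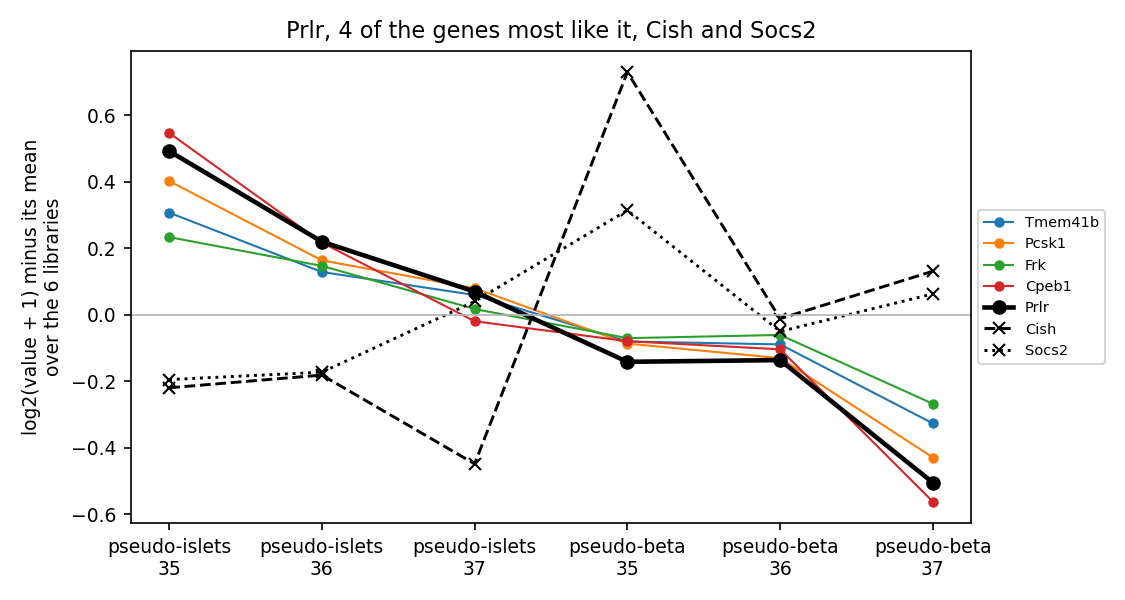
Log2(value + 1) minus its mean over the 6 libraries (y axis) of *Prlr*, 4 of the genes most like it, *Cish* and *Socs2*, in the 6 libraries (x axis), with lines only to guide the eye. *Prlr* and the 4 genes lie highest in pseudo-islets of experiment 35 and lowest in pseudo-beta of experiment 37, whereas *Cish* and *Socs2* peak in pseudo-beta of experiment 35.

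Some markers of other islet cells moved with the groups. *Gcg*, the alpha-cell hormone, held 1763, 941 and 2094 normalized counts in the pseudo-islet libraries against 36.1, 14.1 and 0 in pseudo-beta (limma adjusted p = 0.0437). *Sst*, the delta-cell hormone, held 190.2, 146 and 210.2 in pseudo-islets against 0, 0 and 4.74 in pseudo-beta (limma adjusted p = 0.0189). Of the alpha-cell list 6 of 12 genes were in the table, among them neither *Irx1* nor *Irx2*, and they summed to 8240 to 12161 in pseudo-islets and 5294 to 6505 in pseudo-beta. Of these, *Ttr* and *Etv1* were also higher in pseudo-islets with the block, by 0.59 and 0.91 on the log2 scale (limma adjusted p = 0.0303 and 0.0319, and 0.848 and 0.493 without it). Of the 6 alpha-cell markers 4 lay above 0 and 2 below, among them *Gc* at 0.15 and *Slc7a2* at -0.18, both named after their values were seen. In the delta-cell list the other gene, *Rbp4*, also named after its value was seen, was at -0.05. The delta-cell list, 2 of 8, summed to 369 to 532 and 249 to 273, and the PP-cell list, 3 of 4, to 876 to 5757 and 508 to 2687. *Ppy* and *Pyy*, hormones of PP-cells, were higher in pseudo-islets of every experiment, with limma adjusted p of 0.00267 and 0.0259 with the block, but of 0.99 and 0.983 without it, and their groups overlapped. The 10 beta-cell markers summed to 7220072 to 8337444 and 6961554 to 7704913. None was called (0 of 10), without or with the block, beside 0.0591% and 0.539% of all genes. With the block 6 had an unadjusted p under 0.05 in limma, 4 higher and 2 lower in pseudo-islets, where 11.9% of all genes did.

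*C1qa*, a complement gene of macrophages, was at 2318, 2661 and 1649 normalized counts in the pseudo-islet libraries against 977, 1412 and 983 in pseudo-beta, a log2 difference of 0.97 (limma adjusted p = 0.379, or 0.00305 with the block). It was 1 of 2 genes in the table from a list of 18 for stromal, immune and endothelial cells, and *Cd68*, the other, named after its value was seen, reached 18.6 at most. The listed immune-cell markers *Adgre1*, *Lyz2*, *Ptprc* and *Cd74* were not in the table. The pair summed to 1656 to 2675 in pseudo-islets and 988 to 1416 in pseudo-beta. The acinar and duct list, 3 of 16 in the table, summed to 5445 to 6129 and 4391 to 6891. Without or with the block 0 of it were called, beside 0.0591% and 0.539% of all genes. The part of these other cell types in the *Prlr* and *Cish* differences was not tested.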

How the data were processed

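RNA of 6 libraries of sorted beta-cells was measured, 3 from pseudo-islets and 3 from pseudo-beta. The authors aligned reads to GRCm38 with STAR 2.7.6a, quantified genes with RSEM 1.3.1 and normalized with DESeq2 1.26.0 in R 3.6.3, per the labels. The deposited signal is a normalized count per gene and library, so no count model was run and raw depth is unknown. The deposited columns of the authors' own comparison (log2 fold change and its error, a test statistic score, p-value and adjusted p-value) were not used.

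The 7 genes and all gene lists were chosen with earlier results of these data known. Values were taken as log2(value + 1) and all 13535 genes were fitted with limma 3.58.1 in R 4.3.3, with a prior variance that follows mean level and Benjamini-Hochberg adjustment over all genes. A log2 difference is on this scale, pseudo-islets minus pseudo-beta, and understates low genes. Every gene of the table reached 10 normalized counts in 3 or more libraries. The script was tested on simulated data. Same-numbered libraries deviated together from their group means (correlations of 0.119, 0.121 and 0.325, against -0.203 to 0.0922 for different numbers), and the number names the experiment, so it was used as a block in an alternative fit. Other alternatives were 2 scalings, 2 pseudocounts, a filter, a common prior variance and leaving out libraries or experiments. Genes named were the 7 genes, list genes that were called, up to 2 highest and 2 lowest per list whose mean was 50 normalized counts or more, the other JAK, STAT and SOCS genes, the 5 genes most like *Prlr*, and the hormone genes and list markers that moved with the groups. Genes outside this rule are marked in the text as named after their values were seen. Some items that this rule names are not reported here. Tables and figures were made with Python 3.11.15, pandas 2.3.3, numpy 2.4.6 and matplotlib 3.10.9. Annotation was GENCODE M21, and promoters came from RefSeq.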

Additional observations from a re-analysis of the deposited data

How the results depend on the processing

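Over all genes limma called 8, and the experiment block (the pairing by experiment) raised this to 73. Scaling without the 10 most abundant genes gave 2, or 82 with the block, quantile normalization gave 2, or 81 with the block, a pseudocount of 0.1 gave 1 and a pseudocount of 10 gave 9. With a prior variance common to all genes 2 were called, and 0 with the block, where 1136 genes had an unadjusted p under 0.05. Leaving out 1 library gave 0 to 13 calls, with 13 when the pseudo-beta library of experiment 37 was left out, and leaving out 1 experiment under the block gave 28 to 73, being 28 without experiment 35, 45 without 37 and 73 without 36. The 7 genes were chosen with the results of these libraries in view, *Prlr* for its difference, so the calls that follow are a description. Of them 0 were called without the block under every setting run, and 1, *Prlr*, with it, with it under either scaling, and without experiment 36 or 37, but 0 without experiment 35 or with the common prior variance. Of the other pathway genes 0 were called, except 1, *Lifr*, under quantile normalization with the block, which is named after its value was seen. The sign of *Stat5a* turned, at 0.14 without the pseudo-islet library of experiment 37, 0.01 without the pseudo-beta library of experiment 35 and 0.07 without that of experiment 36. *Stat5b* turned to 0.0080 without the pseudo-beta library of experiment 36 and to 0.038 without experiment 36 under the block. The cause of these shifts was not tested. Over the fits that left out 1 library, the log2 difference was 0.40 to 0.62 for *Prlr*, 0.02 to 0.16 for *Ghr*, -0.36 to -0.01 for *Jak2*, -0.47 to 0.14 for *Stat5a*, -0.22 to 0.01 for *Stat5b*, -0.71 to -0.34 for *Cish* and -0.30 to -0.12 for *Socs2*. *Prlr* was at 0.46 under the other scaling and 0.44 under quantile normalization. Of the 7 genes, *Jak2*, *Stat5a* and *Cish* had the lowest mean levels and the widest intervals, and the cause of that width was not tested.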
